A study of Homo sapiens with 12 samples.

Results

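DENND3, KDM7A, TRPM4, YES1, VLDLR and TAGAP are 6 of the 58884 genes counted in U2932 and TMD8 cells treated with anti-CD20 antibodies. They were chosen by measured values of these same libraries: the mean level of each under anti-CD20 antibody minus its level under isotype, on the log2 scale of CPM (read counts scaled to a common library size), had opposite signs in the 2 cell lines. That difference, called the response below, is therefore given for these genes as a description with no test. Both U2932 and TMD8 are established lines of diffuse large B-cell lymphoma (DLBCL), a tumour of mature B cells, and were wild type by their labels. Each line was given 20 µg/mL of rituximab (R), ofatumumab (OF) or a human IgG1 isotype antibody for 4 h, with 2 libraries for each of the 6 conditions. Every library thus received an IgG1 antibody, and no library was of untreated cells. The 2 replicates of a line were cultures of that line kept apart for a week, so p-values measure the spread between cultures of 1 line. R and OF both bind CD20, a surface protein of B cells encoded by MS4A1, at different epitopes. The study profiled transcription to ask whether R and OF alter it in ways that bear on how each combines with chemotherapy.

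The 6 genes belong to unrelated families. DENND3 (ENSG00000105339, chr8:141117278-141195808 of GRCh38, plus strand) encodes a DENN domain protein, a guanine nucleotide exchange factor that activates the small GTPase Rab12 in membrane trafficking and autophagy. KDM7A (ENSG00000006459, chr7:140084746-140177035, minus strand) encodes a Jumonji-domain histone demethylase that removes methyl groups from repressive marks on histone H3. TRPM4 (ENSG00000130529, chr19:49157741-49211836, plus strand) encodes a cation channel opened by intracellular calcium that carries sodium and so depolarizes the membrane and limits further calcium entry in lymphocytes. YES1 (ENSG00000176105, chr18:721588-812546, minus strand) encodes a Src family tyrosine kinase, a relative of LYN, the member of that family that acts early at the B-cell receptor. TAGAP (ENSG00000164691, chr6:159034468-159045152, minus strand) encodes a GTPase-activating protein of lymphocytes, of the class that switches small GTPases off. VLDLR (ENSG00000147852, chr9:2621834-2660053, plus strand) encodes a cell-surface receptor that takes up lipoproteins and binds reelin. All 6 are protein-coding.

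B-cell identity was checked first. The 4 B-cell markers MS4A1, CD79A, CD79B and PAX5 summed to 1716 to 2801 CPM in U2932 and 2077 to 3249 CPM in TMD8, while the T-cell markers summed to at most 0.13 CPM and the myeloid markers to at most 1.01 CPM. The fibroblast markers COL1A1 and COL1A2 summed to at most 0.67 CPM in U2932 and to between 1.11 and 5.35 CPM in TMD8. Library totals ran from 15440226 to 27110612 counts. In TMD8, the second OF and the second isotype libraries stood apart: ribosomal protein genes took 7.78% and 7.05% of their counts and mitochondrial genes 3.73% and 3.99%, against 10.9% to 11.8% and 5.70% to 6.23% in the other 4 TMD8 libraries. For the 6 genes, and for relatives called in TMD8, values without those libraries are therefore given as well, which leaves 1 OF and 1 isotype library there.

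The promoters of these genes differed widely in CpG content. The set of promoters used here, taken from RefSeq (GRCh38.p14), held a start site for 5 of the 6, all but DENND3. Over the 250 bases before that start, CpG dinucleotides numbered 50 for KDM7A, 41 for VLDLR, 32 for YES1, 16 for TRPM4 and 3 for TAGAP, against a median of 11 over 27305 promoters. The windows of VLDLR and TAGAP are shown because they lie far apart in CpG content and because the response of VLDLR was opposite in sign to that of TAGAP in each line. KDM7A, YES1 and TRPM4 shared the sign of TAGAP, and a link between CpG content and response was not tested. CpG dinucleotides are in capitals, and each window is written 5′ to 3′ on the strand of its gene. The VLDLR window is chr9:2621537-2621786 on the plus strand and overlaps no exon in GENCODE 29. The TAGAP window is chr6:159042354-159042603 on the minus strand. It lies in an intron of a longer TAGAP transcript and overlaps an exon of the antisense gene TAGAP-AS1.
VLDLR: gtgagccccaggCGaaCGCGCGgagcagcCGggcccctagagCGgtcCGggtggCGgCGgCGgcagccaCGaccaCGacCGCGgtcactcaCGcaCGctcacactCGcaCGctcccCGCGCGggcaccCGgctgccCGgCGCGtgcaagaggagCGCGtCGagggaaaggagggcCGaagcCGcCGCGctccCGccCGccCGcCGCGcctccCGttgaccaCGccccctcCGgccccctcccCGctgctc
TAGAP: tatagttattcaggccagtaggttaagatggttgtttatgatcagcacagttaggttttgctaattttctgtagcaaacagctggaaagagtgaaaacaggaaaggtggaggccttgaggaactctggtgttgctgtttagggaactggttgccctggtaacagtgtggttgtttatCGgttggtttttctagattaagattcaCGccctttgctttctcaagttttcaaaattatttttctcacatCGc
GC made up 78.8% of the VLDLR window and 40.4% of the TAGAP window, against a median of 58.0%. The GC box GGGCGG, searched on both strands, occurred in the windows of KDM7A, TRPM4, YES1 and VLDLR, with 1, 3, 3 and 2 matches, the 2 in VLDLR overlapping each other. It occurs in 42.3% of all promoters of this length. The motif CCGGAAG, bound by ETS factors, was in the windows of KDM7A and YES1 and is in 8.82% of promoters. An NF-kB motif was in those of TRPM4 and YES1 and is in 7.75%. These windows are not wholly upstream of their genes in GENCODE 29. An exon of the same gene covers 115 bases of the YES1 window, 52 of that of KDM7A and 51 of that of TRPM4. All 250 bases of the YES1 window lie within the span of its gene. None of the 11 motifs searched occurred in the TAGAP window.

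**Figure D1:**
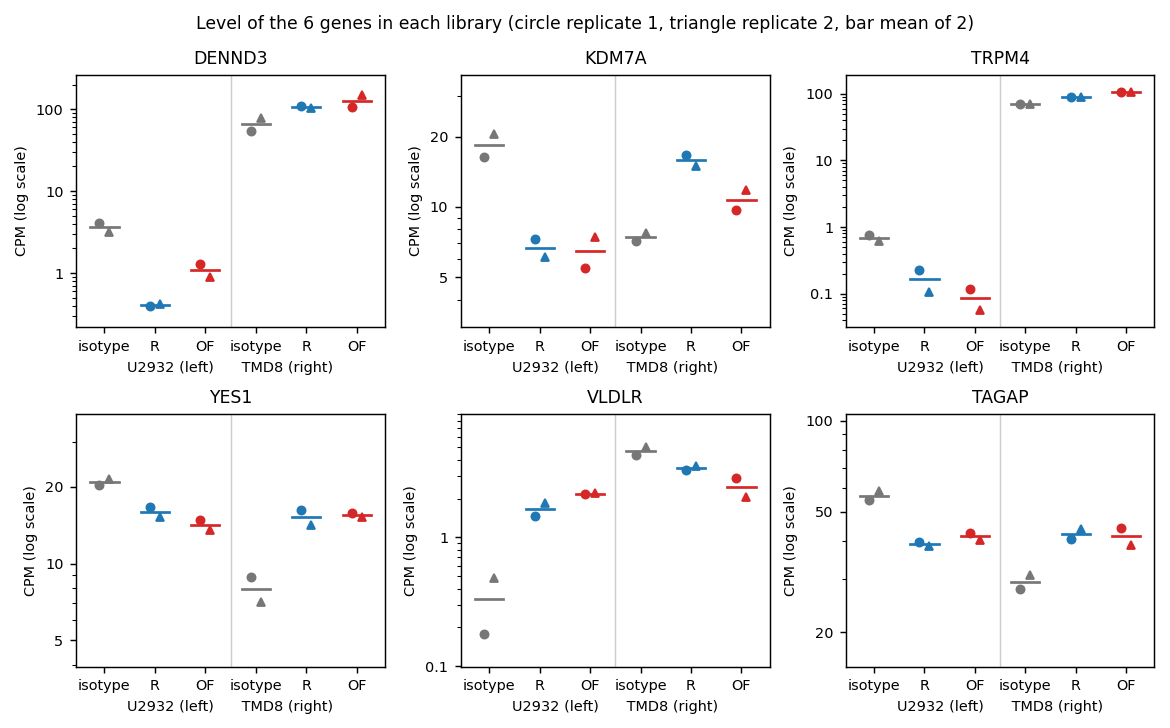
Level of each gene in all 12 libraries, as TMM-normalized CPM on a log axis that differs between panels. Circles are replicate 1, triangles replicate 2 and bars the mean of 2 libraries. U2932 is left of the grey line and TMD8 right of it, and in every panel the isotype libraries lie on one side of the anti-CD20 libraries in U2932 and on the other side in TMD8.

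The plot of levels by library shows the pattern the genes were chosen for. DENND3, KDM7A, TRPM4, YES1 and TAGAP were lower under anti-CD20 antibody than under isotype in U2932 and higher in TMD8, and VLDLR was the reverse. For all 6, the 4 anti-CD20 libraries and the 2 isotype libraries of a line did not overlap in either line. Among the 16187 genes that passed the filter on low counts over all 12 libraries, 269 (1.66%) were likewise apart in both lines in opposite directions, 132 lower and 137 higher in U2932. Responses of opposite sign, with no regard to overlap, were found for 5661 genes (35.0%), of which 2604 were lower in U2932 and higher in TMD8 and 3057 the reverse.

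DENND3, the Rab12 activator, was scarce in U2932 and abundant in TMD8. Its level in U2932 was 0.39 and 0.42 CPM under R (7 and 8 reads), 1.28 and 0.90 CPM under OF and 4.07 and 3.16 CPM under isotype. In TMD8 it was 111 and 103 CPM under R, 107 and 147 CPM under OF and 53.6 and 78.8 CPM under isotype. No 2 conditions of U2932 overlapped, and R lay lowest, whereas R and OF overlapped in TMD8. The response was -2.24 ± 0.12 in U2932 and 0.83 ± 0.26 in TMD8 (log2, SD, n = 2 replicates). Here and below, this SD is over 2 differences, 1 for each replicate number, each averaged over R and OF. It leaves out the spread between R and OF. In U2932 it was larger under R, with -3.06 and -2.62 in the 2 replicates, than under OF, with -1.59 and -1.70. In TMD8 the 4 values ran from 0.39 to 1.05, and the highest single level, in the second OF library, came from one of the libraries that stood apart. Without those libraries the TMD8 response was 1.00.

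KDM7A, the histone demethylase, had levels of the same order in both lines. In U2932 its level was 7.30 and 6.09 CPM under R, 5.49 and 7.43 CPM under OF and 16.3 and 20.5 CPM under isotype. In TMD8 it was 16.7 and 15.0 CPM under R, 9.68 and 11.8 CPM under OF and 7.14 and 7.74 CPM under isotype. U2932 under isotype and TMD8 under R overlapped as the 2 highest conditions, and TMD8 under isotype overlapped both anti-CD20 conditions of U2932 as the lowest. The response was -1.47 ± 0.17 in U2932 and 0.80 ± 0.04 in TMD8 (SD, n = 2). R and OF overlapped in U2932, while in TMD8 both R libraries lay above both OF libraries. The TMD8 values were 1.21 and 0.94 for R and 0.43 and 0.60 for OF. Without the libraries that stood apart the TMD8 response was 0.90.

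TRPM4, the calcium-activated channel, was close to the limit of counting in U2932. Its reads there were 4 and 2 under R, 2 and 1 under OF and 17 and 14 under isotype, or 0.06 to 0.22 CPM under anti-CD20 antibody and 0.61 and 0.76 CPM under isotype. It passed the filter on low counts in U2932 through its isotype libraries alone. Summed over libraries, 9 reads came from the 4 anti-CD20 libraries and 31 from the 2 isotype libraries. In TMD8 the level was 91.3 and 88.7 CPM under R, 108 and 105 CPM under OF and 71.3 and 70.0 CPM under isotype, and no 2 conditions overlapped. The response was -1.81 ± 0.20 in U2932, on a scale that understates changes at so few reads, and 0.47 ± 0.01 in TMD8. It was 0.43 in TMD8 without the libraries that stood apart.

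YES1, the Src family kinase, was measured at similar levels in both lines under anti-CD20 antibody. In U2932 its level was 16.6 and 15.3 CPM under R, 14.9 and 13.6 CPM under OF and 20.5 and 21.5 CPM under isotype. In TMD8 it was 16.3 and 14.2 CPM under R, 15.9 and 15.3 CPM under OF and 8.85 and 7.10 CPM under isotype. The 4 anti-CD20 conditions of the 2 lines overlapped one another in order of mean level, and only the isotype conditions lay apart, highest in U2932 and lowest in TMD8. The response was -0.48 ± 0.14 in U2932 and 0.95 ± 0.13 in TMD8, the largest positive response of the 6 in TMD8. It was 0.80 there without the libraries that stood apart, below DENND3 (1.00) and KDM7A (0.90). The near-identical pseudogene YES1P1 had 1 to 6 reads in the U2932 libraries and 8 to 25 in the TMD8 libraries, against at least 155 for YES1 in any condition.

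TAGAP, the GTPase-activating protein, showed the same arrangement as YES1. In U2932 its level was 39.6 and 38.4 CPM under R, 42.5 and 40.4 CPM under OF and 54.5 and 58.5 CPM under isotype. In TMD8 it was 40.7 and 43.8 CPM under R, 44.0 and 38.9 CPM under OF and 27.7 and 31.0 CPM under isotype. Anti-CD20 levels of TMD8 overlapped those of U2932 under OF, and the isotype conditions were again the highest and the lowest of the 6. The response was -0.49 ± 0.11 in U2932 and 0.51 ± 0.14 in TMD8, and 0.63 in TMD8 without the libraries that stood apart.

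VLDLR, the lipoprotein and reelin receptor, was the 1 gene of the 6 that was higher under anti-CD20 antibody in U2932. Its level in U2932 was 1.46 and 1.85 CPM under R, 2.16 and 2.19 CPM under OF and 0.18 and 0.48 CPM under isotype, the last from 4 and 11 reads. It passed the filter in U2932 through its anti-CD20 libraries alone. In TMD8 it was 3.32 and 3.60 CPM under R, 2.88 and 2.06 CPM under OF and 4.34 and 5.04 CPM under isotype. The lines overlapped where TMD8 under OF met U2932 under OF, and otherwise TMD8 lay higher. Summed over the libraries of U2932, 137 reads came from the 4 anti-CD20 libraries and 15 from the 2 isotype libraries. The response was 2.28 ± 0.62 in U2932 and -0.67 ± 0.27 in TMD8. It was -0.40 in TMD8 without the libraries that stood apart, the largest relative shift among the 6 genes.

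**Figure D2:**
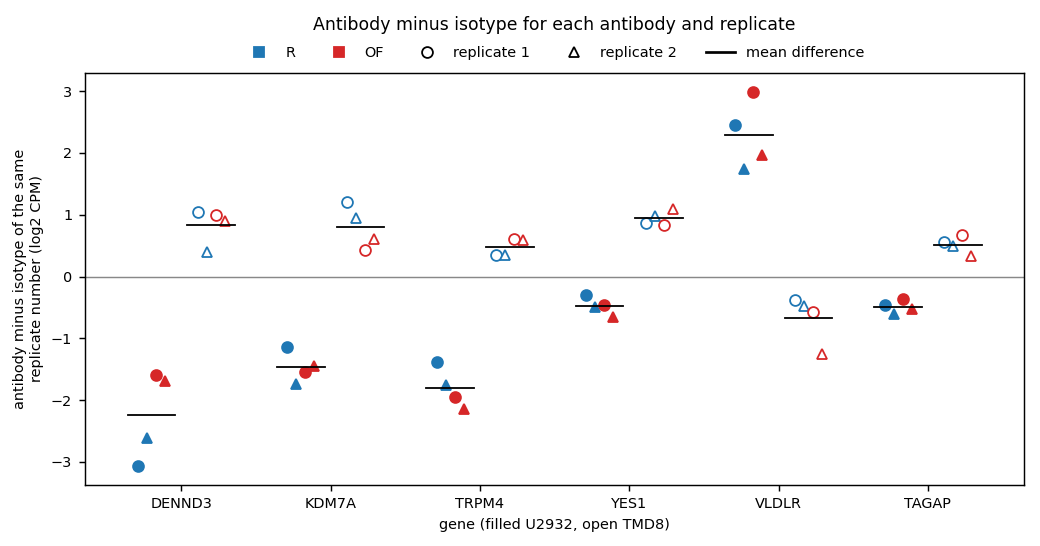
Level under R (blue) or OF (red) minus that under isotype in the library of the same replicate number, in log2 CPM, for each gene. Filled symbols are U2932, open symbols TMD8, circles replicate 1, triangles replicate 2 and black lines the mean difference. For each gene all 4 values of U2932 lie on one side of 0 and all 4 of TMD8 on the other, from -3.06 for DENND3 to 2.99 for VLDLR, both in U2932.

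The responses by antibody and replicate, plotted for each gene, had 1 sign in all 4 values of a line for every gene. The choice of genes bears on these signs. The 4 values of a line share its isotype libraries and are not 4 separate measurements. The spread differed between genes. In TMD8, TRPM4 ran from 0.34 to 0.60 and VLDLR from -0.38 to -1.25, and in U2932 VLDLR ran from 1.73 to 2.99. The difference between the lines, U2932 minus TMD8, was -3.07 for DENND3, -2.27 for KDM7A, -2.28 for TRPM4, -1.42 for YES1, -1.001 for TAGAP and 2.95 for VLDLR. These sizes describe genes chosen for them.

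**Figure D3:**
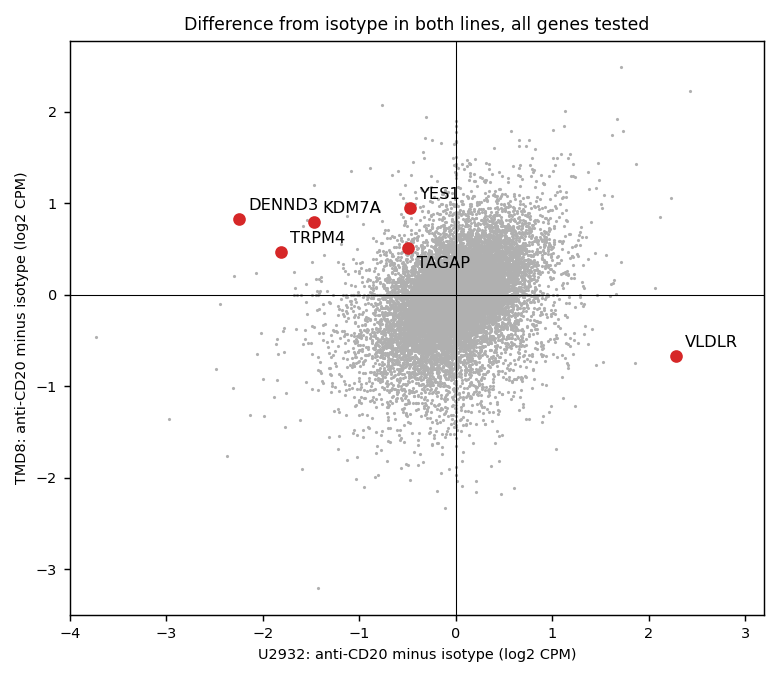
Response of each of the 16187 genes in U2932 (horizontal) and TMD8 (vertical), in log2 CPM, with the 6 genes in red. DENND3, KDM7A, TRPM4, YES1 and TAGAP lie in the upper left quadrant and VLDLR in the lower right.

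In the plot of all genes, DENND3, TRPM4 and VLDLR stood at the edge of the cloud through U2932, and YES1 and TAGAP closer to its middle. Ordered by the smaller of the 2 absolute responses, the 6 took ranks 15 (DENND3), 21 (KDM7A), 59 (VLDLR), 188 (TAGAP), 204 (YES1) and 211 (TRPM4) among the 5661 genes of opposite sign. Just ahead of DENND3 was NPIPB15, of a family of near-identical copies, at a mean of 0.32 CPM and with responses of -1.13 and 0.86. Just behind TRPM4 was TRPV3, another cation channel, with -0.47 in U2932 and 0.50 in TMD8. The 6 genes were thus named within a longer list and do not exhaust it.

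R and OF were then compared, since that contrast took no part in the choice. The question was whether the antibodies moved these genes by different amounts. In edgeR's quasi-likelihood test with Benjamini-Hochberg adjustment over all genes, 0 of the 6 were called in U2932, where a call needed 1.5-fold and an adjusted p under 0.30 and 1 of 14635 genes was called (0.00683%), or 3 (0.0205%) with the replicate number as a block. At an unadjusted p under 0.05 stood 747 genes in U2932, and DESeq2 called 1. In TMD8, at 1.5-fold and an adjusted p under 0.10, 0 of the 6 and 0 of 14227 genes were called (0.0%) by edgeR. There 582 had an unadjusted p under 0.05, and DESeq2 called 0. At a false discovery rate of 0.10, with no fold limit stated, the study itself reported genes that differed between R and OF in TMD8. Most of those were higher under OF, and why the counts differ was not tested. The difference in R minus OF between the lines was called for 0 of the 6 and 0 of 16187 genes (0.0%) by edgeR, with 368 at an unadjusted p under 0.05, and DESeq2 again called 0. At 2 libraries a condition these tests did not separate the antibodies, which does not show that they acted alike.

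DENND3 gave the largest of these differences. R minus OF was -1.41 on the log2 scale in U2932 (SE 0.45, adjusted p = 0.91 by edgeR, or 0.464 with the replicate block), with R lower in both replicates. It was -0.24 (SE 0.24, adjusted p = 0.742) in TMD8, and 0.01 there without the libraries that stood apart. KDM7A was 0.56 higher under R in TMD8 (SE 0.19, adjusted p = 0.733 by edgeR). Without those 2 libraries it was 0.71 with an adjusted p of 0.0234, so that it alone of the 6 was then called, where 131 of 14391 genes (0.91%) were called, against a single OF library that is assumed to vary like the others. KDM7A in U2932 differed by 0.04 (SE 0.18). TRPM4 differed by 0.88 (SE 1.01) in U2932, on 1 to 4 reads a library, and by -0.25 (SE 0.14) in TMD8, or 0.11 after GC correction. VLDLR was -0.40 (SE 0.33) in U2932 and 0.49 (SE 0.28) in TMD8, where it was 0.76 without the first OF library and 0.26 without the second. YES1 and TAGAP differed by at most 0.16 in either line. Without the 2 libraries that stood apart, R minus OF in TMD8 was -0.27 for TRPM4, 0.26 for VLDLR, -0.06 for YES1 and -0.06 for TAGAP, none of them called.

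Levels between the lines were compared over the equal-weight mean of R, OF and isotype, a contrast that the choice did not use directly. It is not independent of the choice for genes with few reads, whose log2 responses vary more. DENND3, TRPM4 and VLDLR had few reads in at least 1 condition of U2932. TRPM4 passed the filter there through isotype libraries alone and VLDLR through anti-CD20 libraries alone. By edgeR over all 12 libraries, DENND3, TRPM4 and VLDLR were called higher in TMD8, 3 of 6 against 28.7% of 16187 genes, and 0 of 6 were called lower, against 30.1%. TRPM4 was 8.63 higher on the log2 scale (SE 0.13, adjusted p = 1.3e-12), an almost complete contrast between 1 to 17 reads a library in U2932 and 1248 or more in TMD8. DENND3 was 6.35 higher (SE 0.17, adjusted p = 3.7e-11), and VLDLR 1.68 higher (SE 0.19, adjusted p = 7.6e-06). YES1 was -0.45 (SE 0.09, adjusted p = 0.000587) and TAGAP -0.28 (SE 0.07, adjusted p = 0.00378), both lower in TMD8 by less than 1.5-fold. KDM7A, at 0.22 (SE 0.11, adjusted p = 0.0955), was under 1.5-fold as well, and its adjusted p was 0.104 with the replicate block and 0.207 without the 2 libraries that stood apart. The same 3 genes were called without those libraries, at 6.17, 8.64 and 1.72. Fewer transcripts per cell and fewer cells with the transcript cannot be told apart in bulk RNA.

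Per kilobase of the longest coding transcript, the genes ranged widely within a condition. In U2932 under isotype TAGAP was at 14.5 CPM per kb, YES1 at 4.52, KDM7A at 1.99, DENND3 at 0.66, TRPM4 at 0.17 and VLDLR at 0.036. In TMD8 under isotype TRPM4 was highest at 17.2 CPM per kb, followed by DENND3 at 12.1, TAGAP at 7.55, YES1 at 1.72, KDM7A at 0.80 and VLDLR at 0.51. VLDLR was thus the lowest of the 6 on this scale in both lines under isotype.

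The genes shared little in transcript composition. GC content of the transcripts was 37.7% for YES1, 38.5% for KDM7A, 42.7% for VLDLR, 47.6% for TAGAP, 55.7% for DENND3 and 63.5% for TRPM4, on both sides of the median of 48.4% over the genes tested. All 6 transcripts were longer than the median of 2850 nt, from 3887 nt for TAGAP to 9272 nt for KDM7A. Antisense genes overlap DENND3, VLDLR and TAGAP, with 41, 28 and 104 reads in all 12 libraries together. Whether reads were counted by strand is not given in the sources used here, so reads of a gene and of its antisense partner cannot be told apart.

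Across the 12 libraries, with the mean of each line removed, the 5 genes lower in U2932 followed one another, with Pearson's r from 0.56 (DENND3 and YES1) to 0.85 (YES1 and TAGAP), and VLDLR ran against them, from -0.64 with YES1 to -0.96 with TRPM4. The choice of genes fixes these signs. The genes most like each were named by the same measure over the same 12 libraries. For DENND3 they were CDR2 (r = 0.94), PIM1 (0.94), a serine/threonine kinase, and CTTNBP2 (0.92). In that order they responded by -0.69, -0.41 and -1.14 in U2932, but only by 0.13 to 0.14 in TMD8. CTTNBP2 had 5 to 23 reads in the U2932 libraries. For KDM7A they were RIMKLB (0.98), the transcription factor ZEB2 (0.95) and the phosphate exporter XPR1 (0.95). These responded by -0.72, -0.63 and -0.37 in U2932 and by 0.325, 0.22 and 0.19 in TMD8. For YES1 they were HIF1A (0.95), the oxygen-regulated transcription factor, the kinase STK17B (0.94) and the receptor TLR1 (0.94), whose responses were -0.21, -0.24 and -0.55 in U2932 and 0.615, 0.745 and 0.85 in TMD8. For VLDLR they were PSPH (0.95), of serine synthesis, the carboxypeptidase M gene (0.94) and POLH (0.94), a DNA polymerase. These responded by 0.52, 0.85 and 0.27 in U2932 and by -0.26, -0.38 and -0.07 in TMD8. For TAGAP they were RRM2 (0.94), a subunit of ribonucleotide reductase, SNAPC3 (0.92) and DPY19L3 (0.92). These responded by -0.25, -0.33 and -0.36 in U2932 and by 0.30, 0.33 and 0.37 in TMD8. For TRPM4 they were ZNF135, ADM-DT and LINC02963 (each 0.93), which had 43 to 102, 7 to 22 and 15 to 44 reads in the U2932 libraries and 0 in every TMD8 library, so that their likeness rests on U2932. The libraries share line, culture and depth, and the order of r is a description.

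**Figure D4:**
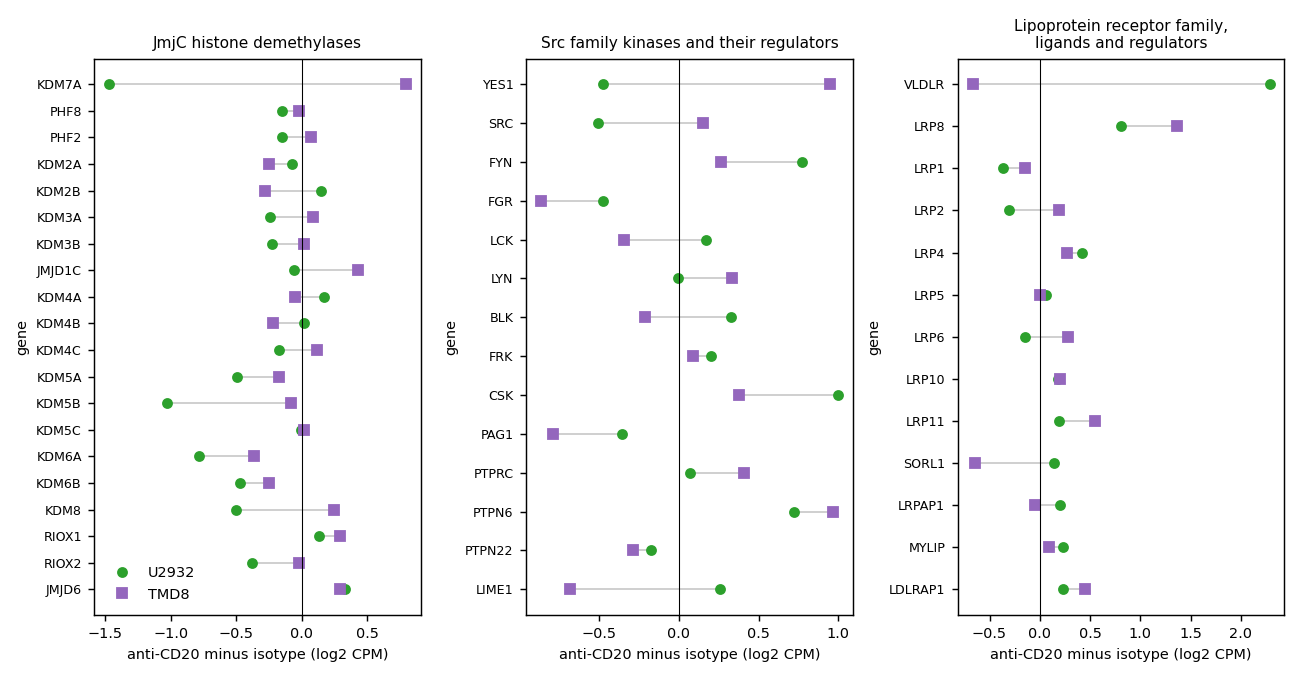
Response in U2932 (green circles) and TMD8 (purple squares), in log2 CPM, of KDM7A, YES1 and VLDLR (top row of each panel) and of the listed relatives of each that were measured. In each panel the top gene lies on opposite sides of 0 in the 2 lines, at -1.47 and 0.80 for KDM7A.

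Relatives of the 6 genes were taken from 6 family lists with 108 genes in all, not picked by how they moved. For these relatives the comparison of anti-CD20 antibody with isotype was tested. In U2932, 6 of 93 tested were called higher and 5 lower (adjusted p under 0.10 and 1.5-fold), against 5.62% and 5.53% of all genes. In TMD8, 3 of 92 were called higher and 1 lower, against 2.09% and 1.93%. With the replicate number as a block 6 of 92 were higher and 3 lower in TMD8, where 4.77% of all genes were higher and 5.47% lower. Without the libraries that stood apart 9 of 92 were higher and 4 lower there, against 6.86% and 6.43%. The median response of the listed genes was -0.001 in U2932 and 0.02 in TMD8, and that of all genes -0.01 and -0.02. A difference in response between the lines was called for 1 of 95, lower in U2932, where 0.519% of all genes were called lower and 0.5% higher. With the block 7 were called lower and 2 higher, against 1.99% and 2.51% of all genes. Without the libraries that stood apart 9 of 96 were called lower and 0 higher, against 3.63% and 4.0%. Opposite signs were found for 34 of the 95, close to the 35.0% of all genes.

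Among histone demethylases, the family of KDM7A, KDM5B and KDM6A fell in U2932. KDM5B, which demethylates lysine 4 of histone H3, was at 16.99 to 19.4 CPM under anti-CD20 antibody and 35.7 and 39.1 CPM under isotype there, a change of -1.03 (SE 0.10, adjusted p = 6.1e-09 by edgeR). In TMD8 it was at 21.8 to 26.2 CPM and at 22.7 and 26.7 CPM, with overlap. Its response in U2932 was lower than in TMD8 by -0.95 (SE 0.18, adjusted p = 0.0535), a call lost without any 1 of the 6 U2932 libraries (highest adjusted p = 0.325, without the second isotype library) or without either TMD8 R library, and kept with the block (adjusted p = 0.0074). KDM6A, which acts on lysine 27, changed by -0.79 in U2932 (SE 0.09, adjusted p = 1.5e-07) and by -0.36 in TMD8 (SE 0.15, adjusted p = 0.271). None of the other 17 measured genes of this list was called in either line. In U2932 some failed by the fold limit alone, with an adjusted p under 0.10 by edgeR. KDM5A (-0.50), KDM8 (-0.50), KDM6B (-0.48), RIOX2 (-0.38), KDM3A (-0.24) and KDM3B (-0.22) were lower there, and JMJD6 (0.33) was higher. The closest relatives of KDM7A, PHF8 and PHF2, were not called.

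In the Src family list, the relatives of YES1, 3 of 13 genes were called in U2932 and 1 of 12 in TMD8 without the block. All were called higher, against 5.62% and 2.09% of all genes. PAG1, another gene of the list, was lower by -0.35 in U2932 and failed there by the fold limit alone (adjusted p = 0.00133 by edgeR). CSK, the kinase that inhibits Src family kinases, rose by 0.99 in U2932 (SE 0.08, adjusted p = 1.6e-09) and differed by 0.38 in TMD8 (SE 0.17, adjusted p = 0.304). PTPN6, the phosphatase SHP-1, rose in both lines, by 0.72 in U2932 (adjusted p = 8.6e-06) and 0.97 in TMD8 (adjusted p = 0.0603, lost without either R library, the first OF or the first isotype library). FYN rose by 0.78 in U2932 (SE 0.11, adjusted p = 3e-06), from 10.9 and 11.5 CPM under isotype to 18.6 to 19.96 CPM. LYN, the most abundant Src kinase of TMD8, differed by -0.001 in U2932 and 0.34 in TMD8, neither called. BLK differed by 0.32 and -0.20, neither called, in U2932 by the fold limit alone (adjusted p = 0.00409 by edgeR).

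In the list of lipoprotein receptors, their ligands and regulators, the relatives of VLDLR, 1 gene was called in each line without the block, and it was the same one. LRP8, the other reelin receptor, rose in both lines, by 0.82 in U2932 (SE 0.09, adjusted p = 9e-08) and 1.36 in TMD8 (SE 0.20, adjusted p = 0.0501, lost without either R library), so it had the sign of VLDLR in U2932 only. Its level in TMD8 was 57.5 to 79.2 CPM under anti-CD20 antibody and 21.0 and 30.5 CPM under isotype. SORL1 averaged 1006 CPM in U2932 and 5.14 CPM in TMD8 and differed by 0.15 and -0.69, neither called without the block. With the block its change in TMD8 was -0.67 and was called (adjusted p = 0.0507), but it was -0.24 without the libraries that stood apart (adjusted p = 0.572).

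Other relatives moved in fewer cases. DENND4A, of the DENN family, fell by 0.64 in U2932 (adjusted p = 2.4e-06, under 1.5-fold without the second isotype library, at -0.45) and by 0.59 in TMD8 (adjusted p = 0.0878, lost without any 1 of the 6 libraries). SBF1 rose by 0.83 in U2932 (SE 0.10, adjusted p = 4.4e-07) and was 0.76 higher in TMD8 (SE 0.39, adjusted p = 0.385), which became a call with the block (0.83, adjusted p = 0.0171) and without the libraries that stood apart (1.18). TRPM7 rose by 0.68 in TMD8 (SE 0.14, adjusted p = 0.0749, lost without any 1 library there), the same sign as TRPM4. It differed by 0.29 in U2932, where it failed by the fold limit alone (adjusted p = 0.00608 by edgeR). TRPM6 and TRPM2, at means of 50.5 and 39.7 CPM in TMD8 and 0 in U2932, differed by 0.54 and 0.39 in TMD8, neither called, although TRPM2 was at 0.65 and called without the libraries that stood apart. Of the list of small GTPases and their activating proteins, the relatives of TAGAP, RHOH, a GTPase-deficient small GTP-binding protein of blood cells, fell by 1.31 in U2932, from 271 and 261 CPM to between 98.1 and 114 CPM. RAC2, the Rac GTPase of blood cells, rose by 0.61 in U2932 (0.55 and under 1.5-fold without the second isotype library). ARHGAP10 fell by 1.10 there, at no more than 0.61 CPM in any U2932 library, a call lost when any library of the line except the second R one was left out (highest adjusted p = 0.319). RHOA, the most abundant on the list over both lines, differed by 0.21 in U2932 and 0.10 in TMD8. Neither was called, in U2932 by the fold limit alone (adjusted p = 0.0219 by edgeR). Without the TMD8 libraries that stood apart, the relatives called in TMD8 were at 1.16 for PTPN6, 1.55 for LRP8, 0.65 for TRPM7 and -0.60 for DENND4A, all still called, as was the difference between the lines of KDM5B (-1.001).

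With the replicate number as a block, other relatives of the 6 genes were called in edgeR's test, and they are named here after their values were seen. In TMD8 these were SBF1 and SORL1, given above, and DENND2D (0.78), ARHGAP21 (0.85) and PAG1 (-0.78), the membrane adaptor that recruits CSK. Each of the latter 3 was also called without the libraries that stood apart, at 0.76, 0.93 and -0.64. Between the lines, the response in U2932 was lower than in TMD8 for RHOH by -1.24 (adjusted p = 0.00096 with the block, 0.103 without it), and higher for CSK by 0.62 (adjusted p = 0.0313 with the block, 0.198 without it). The others were SORL1, higher in U2932 by 0.83, and ARHGAP21, KDM8, DENND2D, ARHGAP5 and ARHGAP12, which were lower there, with log2 differences from -1.01 to -0.63. Without the libraries that stood apart, the differences between the lines were 0.38 for SORL1, 0.50 for CSK and -0.58 for ARHGAP12, all under 1.5-fold. They were -1.16 for RHOH, -1.11 for ARHGAP21, -0.84 for KDM8, -0.80 for ARHGAP5 and -0.70 for DENND2D.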

How the data were processed

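RNA from 12 cultures of U2932 and TMD8 was sequenced by the authors (NEBNext Ultra II libraries), and the deposited table holds raw counts of reads per Ensembl gene, with no normalization or filter. Per the submitters' processing notes, Trim Galore 0.6.0, cutadapt, FastQC, STAR 2.7.0e, DESeq2 1.26.0 and GRCh38 were named. The annotation release and strand setting are not given in the sources used here. Of 58884 genes, 27447 had no count in any library. Names for 41967 came from a table of gene IDs and symbols, positions, length and GC from GENCODE 29 (GRCh38), and promoters from RefSeq.

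edgeR 4.0.16 under R 4.3.3 was used on the counts (TMM, filterByExpr with at least 10 counts, quasi-likelihood test, Benjamini-Hochberg adjustment), in fits of 6 libraries a line (14635 genes in U2932, 14227 in TMD8) and of all 12 (16187 genes). A call needed 1.5-fold and an adjusted p under 0.10 (0.30 between R and OF in U2932). The limits on adjusted p between R and OF are those the study states, and the fold limit was chosen here. CPM were scaled by TMM factors. A prior count of 2 was added for log2 CPM. The tests of R against OF, of level between lines and of anti-CD20 antibody in U2932 were checked on simulated data. The 6 genes and the family lists were chosen with earlier results of these data known. The text names these genes, the 3 genes most like each, the neighbours in rank, and cell type markers. Also named are called family genes, up to 4 abundant others per list, and demethylase genes that failed by the fold limit alone. A few items are not reported here.

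Groups came from the labels. Replicate numbers mark cultures split and grown apart, and deviations from the group mean in same-numbered libraries correlated at -0.04 to 0.10 in U2932 and 0.18 to 0.58 in TMD8 over 16187 genes. The main fits had no block, and blocked values are given where they change a call of a gene named in the text. Replicates differed by more than sampling noise in every condition (chi-square per degree of freedom 2.42 to 106). Alternatives were DESeq2 1.42.0, other scalings, filters, a prior count of 0.5, a GC correction, a replicate block and the omission of each library. Leaving out the 2 TMD8 libraries that stood apart was chosen after seeing the data.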

Additional observations from a re-analysis of the deposited data

Results flagged for a closer look

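The 6 genes were chosen because their responses differ in sign between U2932 and TMD8, so their differences of response between the lines were not tested. U2932 minus TMD8 was -3.07 for DENND3, -2.27 for KDM7A, -2.28 for TRPM4, -1.42 for YES1, 2.95 for VLDLR and -1.001 for TAGAP, in log2 CPM. All 4 values of one line lay on the other side of 0 from all 4 of the other line. The choice of genes bears on these signs, and the 4 values of a line share its isotype libraries.

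Among their relatives, the response of KDM5B was lower in U2932 than in TMD8 by the test of the difference itself (-0.95 log2, adjusted p = 0.0535 by edgeR). It was the 1 call among 95 relatives tested. The call was lost in 8 of the 12 fits that left out 1 library (highest adjusted p = 0.325 by edgeR).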

How the results depend on the processing

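Responses of the 6 genes were recomputed 144 times under other scalings, prior counts, filters and omitted libraries. Of these, 0 changed sign and 32 moved by more than 1 SD, and since the genes were chosen for their signs, this is no measure of stability. Scaling by library size alone moved the median response of all genes to -0.09 in U2932 and -0.10 in TMD8. The share of genes of opposite sign ran from 31.8% to 40.4%.

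The count of the 6 genes called for level between lines, 3, became 6 with no fold limit and 0 with 10 counts in every library, where DENND3, TRPM4 and VLDLR were no longer tested. For R against OF in TMD8 it was 1 without the 2 libraries that stood apart. Relatives called in U2932, 11, became 40 with no fold limit. In TMD8, 4 became 7 with DESeq2, 8 with no filter, 9 with the replicate block, 9 with GC correction and the block, 0 to 3 with 1 library omitted and 13 without the 2 libraries. Between the lines, 1 became 8 with DESeq2, 3 with its size factors, 2 by library size, 5 with no filter, 3 with 10 counts in every library, 9 with the replicate block, 4 with GC correction, 7 with GC correction and the block, 0 to 10 with 1 library omitted and 9 without the 2 libraries. The causes were not tested.

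Small R minus OF differences changed sign. DENND3 in TMD8 was -0.444 to 0.003 with 1 library omitted and 0.007 without the 2 libraries. KDM7A in U2932 was -0.004 with GC correction, -0.001 with the block added, and -0.157 to 0.281 with 1 library omitted. TRPM4 in TMD8 was 0.11 with GC correction and 0.12 with the block added. YES1 in TMD8 was -0.138 to 0.075 with 1 library omitted. TAGAP in TMD8 was -0.033 by library size, -0.023 with GC correction, -0.025 with the block added, -0.064 to 0.134 with 1 library omitted and -0.058 without the 2 libraries. The replicate block changed the call of 0 of the 6 genes.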
